A study of Mus musculus with 12 samples.

Results

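The MHC class II antigen presentation genes were followed through the left ventricle of mice with and without the HDAC inhibitor ITF2357. They were 7 genes of the pathway picked by symbol, H2-Aa, H2-Ab1, H2-Eb1, H2-DMa, H2-DMb1, Cd74 and Ciita, out of 78334 gene identifiers in the count table. All 7 had enough counts to be among the 16981 genes tested. Poly(A) RNA came from 12 ventricular samples in 3 groups of 4, which the labels call biological replicates, with 1 library each. UNX/DOCA usually stands for removal of a kidney with the mineralocorticoid deoxycorticosterone acetate, and the labels call it a surgery that leads to diastolic dysfunction. UNX/DOCA ITF2357 mice had it and after 4 weeks received chow with ITF2357, which blocks histone deacetylases, for another 4 weeks. UNX/DOCA vehicle mice had the same surgery and received normal chow for those 4 weeks, and Sham vehicle mice had a sham operation and normal chow. Both UNX/DOCA groups thus share the surgery, and no sham group on ITF2357 was analysed here. Strain, sex and age are not given in the labels used here.

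MHC class II molecules are pairs of an α and a β chain that display peptides from endocytosed proteins to CD4+ T cells. The chains assemble with the invariant chain, encoded by Cd74, which blocks the groove until proteases in endosomes degrade it. The DM molecule, encoded by H2-DMa and H2-DMb1, then exchanges the remaining invariant chain fragment for peptide. Ciita encodes the transactivator that switches these genes on together. It does not bind DNA itself but docks on RFX, CREB and NF-Y proteins held at the X and Y boxes of their promoters. In the heart, class II is carried mainly by macrophages, dendritic cells and B cells, and interferon γ can induce it in other cells.

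The promoters show where the transactivator's partners are known to bind, so the sequences just upstream of 3 of the genes are given. They are the last 110 bases before the RefSeq start of each gene in build GRCm38.p6, on the strand of the gene, for H2-Eb1 at chr17:34305757-34305866 (plus strand), H2-DMb1 at chr17:34153081-34153190 (plus strand) and H2-Aa at chr17:34287824-34287933 (minus strand). Capitals mark the X box core, searched as AGNNACNGA, and the inverted CCAAT of the Y box, searched as ATTGG, each on both strands.
H2-Eb1: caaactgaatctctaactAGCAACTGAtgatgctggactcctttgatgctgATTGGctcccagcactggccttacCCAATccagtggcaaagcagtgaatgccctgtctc
H2-DMb1: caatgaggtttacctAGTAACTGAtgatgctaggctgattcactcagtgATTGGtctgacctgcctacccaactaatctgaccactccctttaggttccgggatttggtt
H2-Aa: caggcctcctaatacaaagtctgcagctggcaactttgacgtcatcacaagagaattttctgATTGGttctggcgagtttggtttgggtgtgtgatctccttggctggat
H2-Eb1 and H2-DMb1 held an X box core followed by an ATTGG on the same strand, with 24 and 25 bases between them, and their cores began 92 and 95 bases before the start. H2-Eb1 also held an ATTGG on the other strand, read here as CCAAT. H2-Aa held an ATTGG without an exact core. Of the 7 genes, 4 matched the RefSeq promoter table, and promoters of H2-Ab1, Cd74 and Ciita were not analysed here. These 4 genes had 5 promoters, and a gene counted if any promoter of it held the motif, whereas the shares over all promoters are per promoter. Within 250 bases of the start, a core stood in 2 of the 4 and an ATTGG in 4 of the 4, against 14.7% and 33.8% of all 32851 promoters. For H2-DMa, not printed above, the ATTGG stood 198 bases before the start of a single promoter and was absent from its other promoter. The ordered pair with a gap of 10 to 30 bases stood in 2 of the 4 and in 0.18% of all promoters. These matches describe letters in a window and were not tested for binding.

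The libraries held 23.4 to 34.9 M counts each. Levels are in CPM, read counts scaled to library size, and 1 CPM stood for about 28.3 reads. The cardiomyocyte markers Myh6, Tnnt2, Tnni3, Actc1, Ryr2, Myl2 and Pln summed to between 48800 and 62870 CPM in each library. UNX/DOCA vehicle replicates 3 and 4 stood apart from the other 10 libraries in neutrophil, macrophage and fibroblast markers. Their fibroblast markers summed to 990.7 and 804.8 CPM, against 593.7 to 721.7 CPM in the others. Their 7 neutrophil markers summed to 499.1 and 162.3 CPM, against 3.88 to 44.3 CPM in the others, and their 14 macrophage markers to 649.3 and 480.8 CPM, against 222.8 to 420.4 CPM. Results on the class II genes are therefore given with and without these libraries.

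The genes for both chains of the A molecule and for the β chain of the E molecule were highest in the same libraries. All values are after TMM scaling, which corrects for differences in RNA composition. H2-Aa, the α chain of the A molecule, had 31.8, 40.5, 34.8 and 41.0 CPM in UNX/DOCA ITF2357 ventricles, 28.9, 37.3, 102.8 and 70.1 CPM in UNX/DOCA vehicle ventricles, and 29.2, 50.7, 26.7 and 29.1 CPM in Sham vehicle ventricles, in the order of the replicate numbers. UNX/DOCA vehicle replicates 3 and 4 were above every other library, while replicates 1 and 2 lay inside the range of the other groups. H2-Ab1, the β chain that pairs with it, had 22.3, 31.5, 22.8 and 29.6 CPM in UNX/DOCA ITF2357, 22.3, 28.1, 76.5 and 49.7 CPM in UNX/DOCA vehicle, and 22.6, 33.2, 17.96 and 21.6 CPM in Sham vehicle. H2-Eb1, the β chain of the E molecule, had 19.2, 26.9, 21.5 and 24.8 CPM in UNX/DOCA ITF2357, 18.6, 23.6, 67.4 and 45.4 CPM in UNX/DOCA vehicle, and 18.3, 30.5, 16.3 and 16.3 CPM in Sham vehicle. The same libraries were high for all 3 genes, and replicate 2 was the highest of the Sham vehicle group each time.

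The accessory genes of the pathway were highest in those libraries as well. H2-DMa, the α chain of the peptide exchanger, had 3.07, 3.55, 2.39 and 3.02 CPM in UNX/DOCA ITF2357, 2.50, 2.65, 6.94 and 6.01 CPM in UNX/DOCA vehicle, and 2.93, 3.83, 1.503 and 2.40 CPM in Sham vehicle. H2-DMb1, its β chain, had 1.18, 1.64, 1.25 and 1.78 CPM in UNX/DOCA ITF2357, 1.45, 1.29, 4.74 and 3.31 CPM in UNX/DOCA vehicle, and 1.14, 1.76, 1.15 and 1.44 CPM in Sham vehicle. Cd74, the invariant chain, had 44.4, 66.6, 50.6 and 61.9 CPM in UNX/DOCA ITF2357, 47.0, 58.4, 162.7 and 112.1 CPM in UNX/DOCA vehicle, and 49.7, 75.5, 42.8 and 54.0 CPM in Sham vehicle. For these 3 genes UNX/DOCA vehicle replicates 3 and 4 ranked 1 and 2 of 12. Across the 6 genes other than Ciita, the mean of those 2 libraries was 2.32 to 2.86 times the mean of the other 10.

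Ciita, the transactivator, had another order of libraries. It had 2.18, 2.64, 1.74 and 1.37 CPM in UNX/DOCA ITF2357, 1.92, 1.49, 2.41 and 2.84 CPM in UNX/DOCA vehicle, and 2.47, 3.77, 0.831 and 2.64 CPM in Sham vehicle. Its highest and lowest libraries were both in the Sham vehicle group, and UNX/DOCA vehicle replicates 3 and 4 ranked 6 and 2 of 12. Their mean was 1.25 times that of the other 10 libraries. Its counts were low, 21 to 135 reads per library, and its exons share bases with Dexi on the opposite strand.

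**Figure D1:**
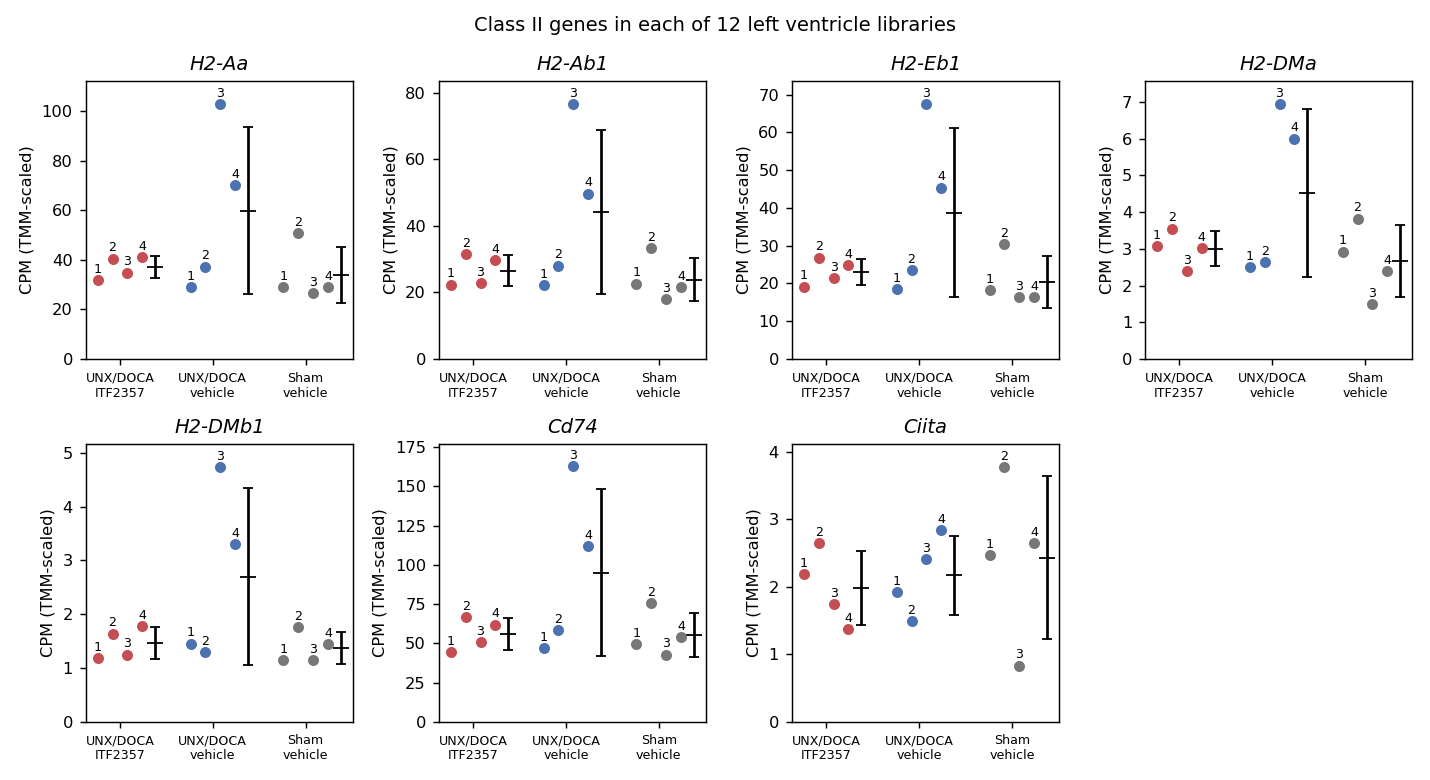
Each panel plots 1 class II gene in CPM (TMM-scaled, linear axis from 0), with a numbered point per library, and the bar at the right of each group gives its mean and SD over 4 libraries. In 6 panels UNX/DOCA vehicle replicates 3 and 4 are the 2 highest points and replicates 1 and 2 lie among the other groups, and in the Ciita panel the highest and lowest points are both Sham vehicle libraries.

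Levels between genes were compared per kilobase of exon, using exon lengths from a GRCm38 annotation. Each length joins the exons of all annotated transcripts of the gene, so it can exceed that of any single transcript. It was 1679 bases for Cd74, 3798 for H2-Aa and 9535 for Ciita, and the order of genes below depends on this choice. In mean CPM per kilobase, Cd74 had 33.3 in UNX/DOCA ITF2357, 56.6 in UNX/DOCA vehicle ventricles and 33.1 in Sham vehicle. The chain genes came next, from 9.75 to 11.9 in UNX/DOCA ITF2357, 15.7 to 19.9 in UNX/DOCA vehicle ventricles and 8.92 to 10.5 in Sham vehicle. H2-DMa and H2-DMb1 were lower, 0.873 and 0.870 in UNX/DOCA ITF2357, and Ciita was lowest at 0.208 in that group, 0.227 in UNX/DOCA vehicle ventricles and 0.255 in Sham vehicle. Of the other class II chains, H2-Ea, the α partner of H2-Eb1, is listed in the GRCm38 annotation as H2-Ea-ps, a polymorphic pseudogene. It had no counts in 11 libraries and 0.0337 CPM in UNX/DOCA vehicle replicate 1, so an E molecule cannot be inferred from H2-Eb1 here. A count of 0 allows up to 0.0838 to 0.125 CPM in these libraries (3 counts, counting error only). H2-Eb2 stayed at or below 0.249 CPM and H2-Oa, the α chain of the DM inhibitor DO, at or below 0.166 CPM, so these 3 genes were not tested. H2-Ob, the β chain of DO, averaged 1.01 ± 0.142 CPM in UNX/DOCA ITF2357, 1.26 ± 0.52 CPM in UNX/DOCA vehicle ventricles and 1.36 ± 0.338 CPM in Sham vehicle (SD, n = 4 each). H2-DMb2, a near-identical copy of H2-DMb1, averaged 0.382, 0.569 and 0.558 CPM in those groups, and neither passed in any comparison.

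The ITF2357 chow comparison asks what the inhibitor did to these genes in ventricles after UNX/DOCA. The 6 genes other than Ciita had means 0.546 to 0.669 times as high in UNX/DOCA ITF2357 as in UNX/DOCA vehicle in the fitted model, but 0 of the 7 passed the threshold of 0.05 on the adjusted p (edgeR quasi-likelihood test, Benjamini-Hochberg over all 16981 genes). Over all genes, 0.901% passed. At an unadjusted p under 0.05 there were 3 of the 7, H2-Ab1, H2-DMb1 and Cd74, beside 18.5% of all genes, and DESeq2 and limma-voom also called 0. H2-Aa averaged 37.0 ± 4.46 CPM in UNX/DOCA ITF2357 and 59.8 ± 33.7 CPM in UNX/DOCA vehicle (SD, n = 4 each), a log2 fold change of -0.69 ± 0.35 (SE, edgeR adjusted p = 0.309). H2-Ab1 differed by -0.73 ± 0.33 (adjusted p = 0.269) and H2-Eb1 by -0.74 ± 0.35 (adjusted p = 0.287) on the log2 scale. For H2-DMa the value was -0.58 ± 0.35 (adjusted p = 0.394) and for H2-DMb1 -0.87 ± 0.37 (adjusted p = 0.227).

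Cd74 averaged 55.9 ± 10.2 CPM in UNX/DOCA ITF2357 and 95.02 ± 53.3 CPM in UNX/DOCA vehicle (SD, n = 4 each), with a log2 fold change of -0.76 ± 0.34 (adjusted p = 0.254). Ciita averaged 1.98 ± 0.552 CPM in UNX/DOCA ITF2357 and 2.17 ± 0.588 CPM in UNX/DOCA vehicle, a log2 fold change of -0.12 ± 0.37 (adjusted p = 0.897, 95% interval -0.95 to 0.71). The libraries of the groups overlapped for all 7 genes, whereas they did not overlap for 9.31% of all genes tested. The median log2 fold change of the 7 was -0.73, against 0.00 over all genes (-0.0012 before rounding). For the 6 genes other than Ciita the SD was larger in UNX/DOCA vehicle than in UNX/DOCA ITF2357. Leaving out UNX/DOCA vehicle replicates 3 and 4 together, the sign turned for all 7, to between 0.07 for H2-Ab1 and 0.22 for H2-DMa and Ciita, and without replicate 3 alone the 6 genes lay between -0.47 and -0.30. In bulk tissue, fewer cells that carry class II and less class II RNA per cell cannot be told apart.

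The UNX/DOCA vehicle against Sham vehicle comparison asks what the surgery did without the drug. It shares the UNX/DOCA vehicle libraries with the comparison above, so opposite signs in both are not independent. Again 0 of the 7 genes passed, and 0% of all genes did. At an unadjusted p under 0.05 there were 5 of the 7, beside 15.9% of all genes (2699), and among the 7 DESeq2 and limma-voom also called 0. H2-DMb1 averaged 2.697 ± 1.64 CPM in UNX/DOCA vehicle and 1.37 ± 0.294 CPM in Sham vehicle (SD, n = 4 each), a log2 fold change of 0.95 ± 0.37 (edgeR adjusted p = 0.246). H2-Eb1 differed by 0.92 ± 0.36 (adjusted p = 0.249), H2-Ab1 by 0.88 ± 0.34 (adjusted p = 0.239) and H2-Aa by 0.81 ± 0.35 (adjusted p = 0.290). Cd74 differed by 0.77 ± 0.34 (adjusted p = 0.300) and H2-DMa, whose exons share bases with Brd2 on the opposite strand, by 0.75 ± 0.35 (adjusted p = 0.322), while Ciita had -0.18 ± 0.36 (adjusted p = 0.843).

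The groups overlapped for all 7 genes in that comparison too, while 9.39% of all genes had no overlap. The median log2 fold change of the 7 was 0.81, against 0.01 over all genes. When UNX/DOCA vehicle replicates 3 and 4 were left out, the values lay between -0.08 and 0.07 for the 6 genes other than Ciita, with H2-Aa, H2-DMa, H2-DMb1 and Cd74 turning below 0. Lower values followed here too from leaving out the highest libraries of these 6 genes. Without replicate 3 alone these 6 lay between 0.38 and 0.54. Ciita, with both left out, was at -0.52, and without Sham vehicle replicate 2 it was at 0.12.

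The remaining comparison set UNX/DOCA ITF2357 against Sham vehicle, which differ in both surgery and drug. None of the 7 genes passed, 0 had an unadjusted p under 0.05 beside 20.1% of all genes, DESeq2 and limma-voom called 0, and 1.75% of all genes passed. H2-Ab1 averaged 26.6 ± 4.69 CPM in UNX/DOCA ITF2357 and 23.9 ± 6.56 CPM in Sham vehicle (SD, n = 4 each), with a log2 fold change of 0.15 ± 0.33 (edgeR adjusted p = 0.839). Its 95% interval, -0.60 to 0.91, leaves room for a difference in either direction. The 6 genes other than Ciita lay between 0.01 for Cd74 and 0.18 for H2-Eb1, and Ciita was at -0.30 ± 0.37 (adjusted p = 0.691). The groups overlapped for all 7 genes, while 13.7% of all genes had no overlap. The median of the 7 was 0.13, against 0.01 over all genes.

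**Figure D2:**
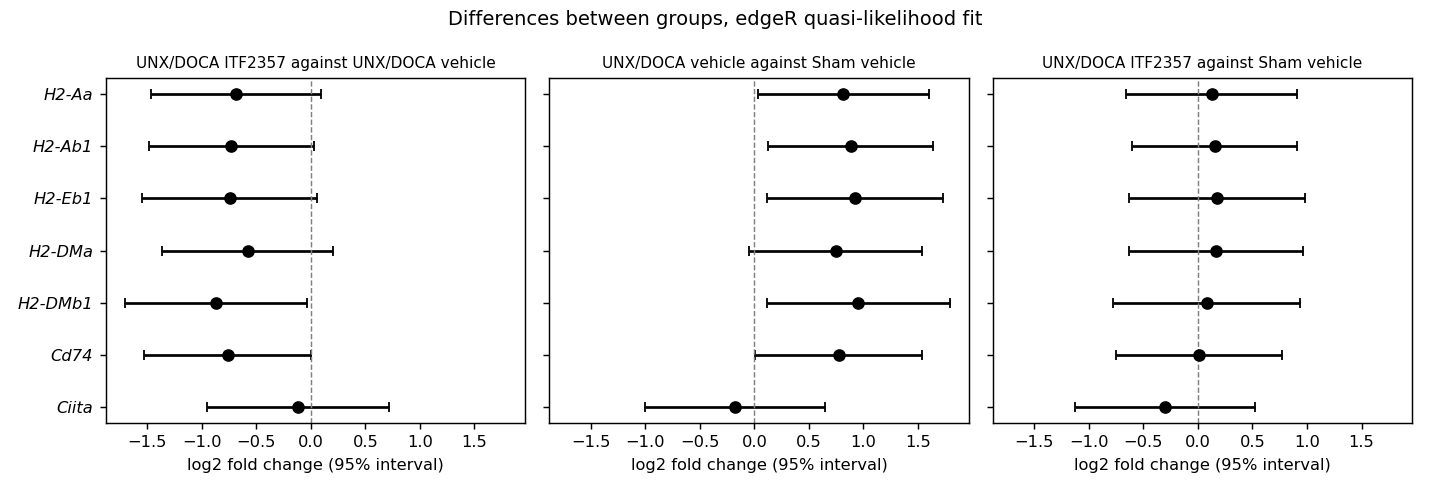
Points give the log2 fold change of each class II gene in the edgeR quasi-likelihood fit, with 95% intervals before adjustment, for 3 comparisons of 4 against 4 libraries. The 6 genes other than Ciita lie left of 0 in the first panel and right of 0 in the second, which share the UNX/DOCA vehicle libraries, and all 7 intervals include 0 in the third. Intervals are slightly wider than the edgeR test implies. Those of H2-Ab1 and Cd74 in the first panel include 0, though their unadjusted p was under 0.05.

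**Figure D3:**
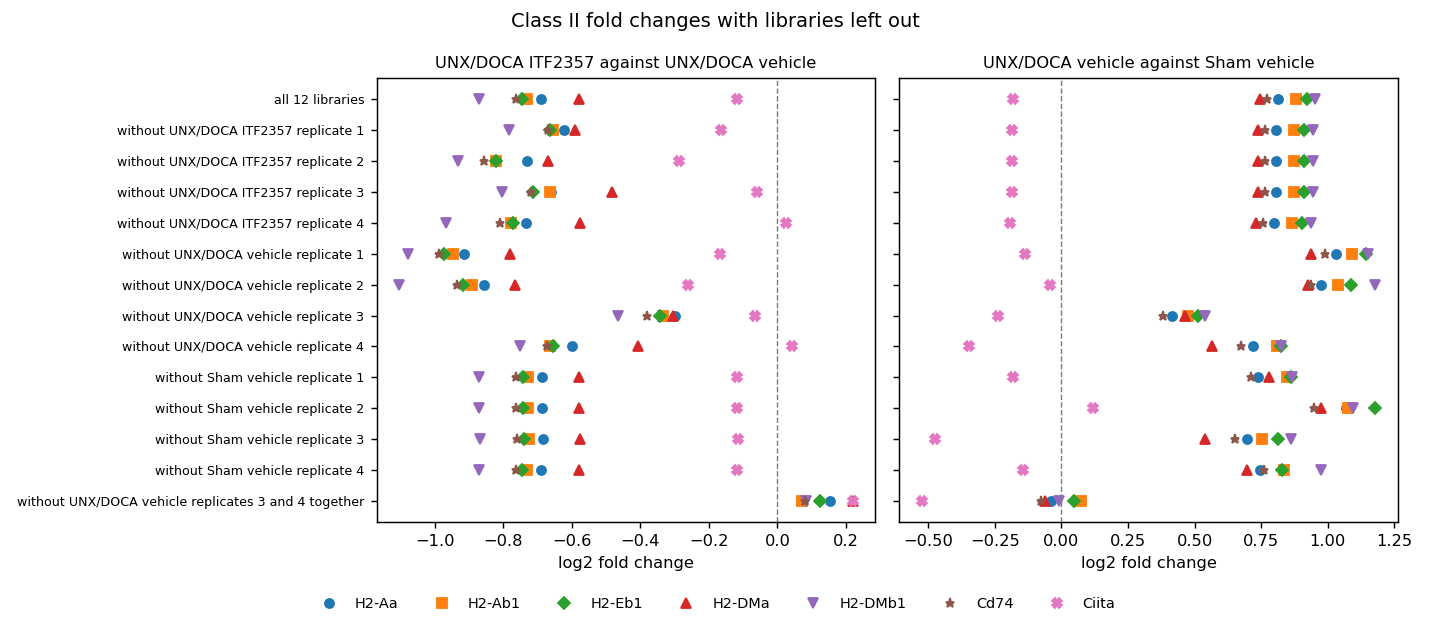
Log2 fold changes of the 7 class II genes (symbols) are shown for all 12 libraries, with each library left out in turn and with replicates 3 and 4 of UNX/DOCA vehicle both left out. The 6 genes other than Ciita keep their side of 0 when any 1 library is left out in these 2 comparisons, and in the last row they lie within 0.22 of 0.

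The 6 genes other than Ciita kept nearly fixed proportions to each other from library to library. Over the 12 libraries the count ratio to H2-Ab1 ran from 1.29 to 1.53 for H2-Aa, from 0.756 to 0.944 for H2-Eb1 and from 1.99 to 2.50 for Cd74, so the largest was at most 1.25 times the smallest. The DM genes were looser, with 1.64 times for H2-DMa and 1.45 times for H2-DMb1, on 38 to 167 and 29 to 114 reads. The ratio of Ciita to H2-Ab1 ran from 0.0315 in UNX/DOCA vehicle replicate 3 to 0.122 in Sham vehicle replicate 4, a 3.88-fold range. On log2 CPM, Ciita correlated most with H2-DMa over the 12 libraries (r = 0.65, rho = 0.58). The permutation p of r was 0.0244, or 0.147 after Benjamini-Hochberg adjustment over the 6 genes, and that of rho was 0.0524, or 0.237 adjusted. With the other 5 genes r lay between 0.38 and 0.45, with adjusted p = 0.220 for each by permutation. Without UNX/DOCA vehicle replicates 3 and 4, which were farthest from the median, r over the 10 remaining libraries was 0.79 with H2-DMa and 0.39 to 0.54 with the others.

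**Figure D4:**
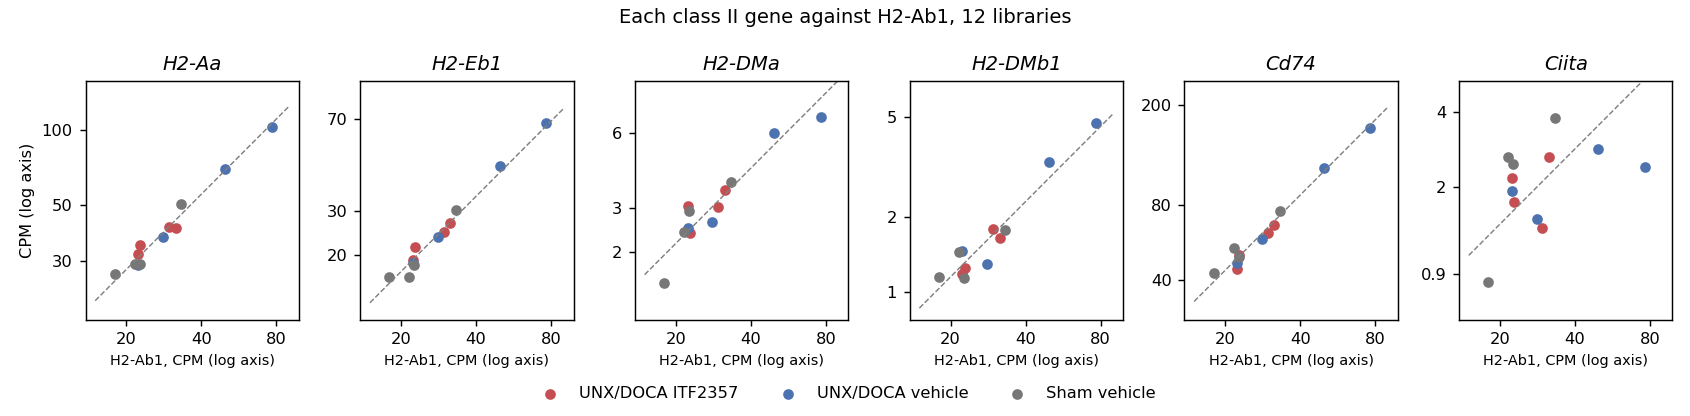
Each panel plots 1 gene against H2-Ab1 in CPM on log axes, with a point per library coloured by group, and the dashed line marks a fixed ratio to H2-Ab1. Points for H2-Aa, H2-Eb1 and Cd74 follow the line through all 3 groups, and those for Ciita scatter around it.

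The proteins that hold Ciita at the X and Y boxes are encoded by genes of which no call was made. None of the 7 enhanceosome genes (Rfx5, Rfxap, Rfxank, Nfya, Nfyb, Nfyc and Creb1) passed in any comparison (edgeR), and 0, 1 and 1 had an unadjusted p under 0.05. For this and the lists that follow, such counts stand in the order of the 3 comparisons above, in which 18.5%, 15.9% and 20.1% of all genes had one. The 7 genes had summed levels of 110.6 to 134.7 CPM in UNX/DOCA ITF2357, 112.4 to 132.0 CPM in UNX/DOCA vehicle and 106.5 to 128.8 CPM in Sham vehicle. Rfx5, the DNA-binding RFX subunit, averaged 2.49 ± 0.805 CPM in UNX/DOCA ITF2357 and 3.51 ± 0.631 CPM in Sham vehicle (SD, n = 4 each), a log2 fold change of -0.50 ± 0.22 (adjusted p = 0.222). Upstream of Ciita, 0 of 17 tested genes of the interferon γ axis passed in any comparison, and 2, 3 and 2 had an unadjusted p under 0.05. Ifng itself had no counts in all 12 libraries, within the same limit as H2-Ea. The axis's median log2 fold change was 0.04 for UNX/DOCA ITF2357 against UNX/DOCA vehicle and 0.12 for UNX/DOCA vehicle against Sham vehicle.

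In the endosomal steps, 2 of 9 genes were called, both higher in UNX/DOCA ITF2357 than in Sham vehicle, where 1.75% of all genes passed. At an unadjusted p under 0.05 there were 5, 6 and 3 of the 9. Asah1, the lysosomal acid ceramidase, averaged 37.3 ± 1.77 CPM in UNX/DOCA ITF2357 and 28.7 ± 1.80 CPM in Sham vehicle (SD, n = 4 each), a log2 fold change of 0.38 ± 0.07 (adjusted p = 0.0265). Ctsz, a lysosomal carboxypeptidase, averaged 33.9 ± 2.21 CPM and 22.95 ± 1.77 CPM in the same groups, a log2 fold change of 0.56 ± 0.12 (adjusted p = 0.0365). In UNX/DOCA vehicle against Sham vehicle Ctsz had nearly the same value, 0.57 ± 0.12, which did not pass (adjusted p = 0.0954). The call of Asah1 ended without UNX/DOCA ITF2357 replicate 3 or 4 or Sham vehicle replicate 1, 2 or 4, and that of Ctsz without any 1 of UNX/DOCA ITF2357 replicates 2, 3 and 4, UNX/DOCA vehicle replicate 4 and all 4 Sham vehicle libraries (adjusted p up to 0.415 and 0.234 over all alternatives). Ctss, the protease that trims the invariant chain, had 9.35, 14.3, 14.4 and 15.6 CPM in UNX/DOCA ITF2357, 13.8, 14.96, 34.8 and 28.6 CPM in UNX/DOCA vehicle, and 9.24, 19.1, 11.6 and 15.98 CPM in Sham vehicle. It was high in the same 2 libraries as the class II genes, with a log2 fold change of -0.78 ± 0.31 for ITF2357 against vehicle (adjusted p = 0.209). Ctsb and Sppl2a had smaller p in that comparison, at -0.29 ± 0.08 (adjusted p = 0.112) and 0.25 ± 0.08 (adjusted p = 0.125). For both, the libraries of the groups did not overlap, beside 9.31% of all genes. Sppl2a, unlike Ctss, was lowest in UNX/DOCA vehicle replicate 3, at 52.1 CPM.

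Of the surface turnover and costimulation genes, 0 of 7 tested passed in any comparison, and 1, 4 and 3 had an unadjusted p under 0.05. Their median log2 fold change was -0.37 for UNX/DOCA ITF2357 against UNX/DOCA vehicle and 0.71 for UNX/DOCA vehicle against Sham vehicle. Over these and the other companion genes of the pathway, 62 in all, edgeR called 1, 0 and 2 in the 3 comparisons, DESeq2 2, 3 and 3, and limma-voom 1, 2 and 3. Marchf1, the ubiquitin ligase that removes class II from the surface, had 1.85, 2.25, 2.98 and 2.90 CPM in UNX/DOCA ITF2357, 1.99, 1.26, 4.61 and 4.68 CPM in UNX/DOCA vehicle, and 1.14, 1.201, 1.31 and 1.24 CPM in Sham vehicle. All UNX/DOCA ITF2357 libraries were above all Sham vehicle libraries, in a comparison where 13.7% of all genes had no overlap. The log2 fold change of Marchf1 was 1.03 ± 0.37 there (adjusted p = 0.144), and UNX/DOCA vehicle against Sham vehicle had 1.35 ± 0.36 (adjusted p = 0.133). Cd86, a costimulatory ligand, was at 1.14 ± 0.38 in UNX/DOCA vehicle against Sham vehicle (adjusted p = 0.197).

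Class I genes, which present cytosolic peptides to CD8+ T cells, had another order of libraries than class II. Of 14 class I presentation genes, 1 fell in UNX/DOCA ITF2357 against UNX/DOCA vehicle, where 0.901% of all genes passed. None of the others passed in any comparison, and 1, 5 and 3 of the 14 had an unadjusted p under 0.05. Psmb10, an immunoproteasome subunit, had 20.8, 31.0, 27.8 and 23.9 CPM in UNX/DOCA ITF2357, 42.2, 37.7, 39.7 and 55.9 CPM in UNX/DOCA vehicle, and 33.5, 32.0, 32.3 and 32.0 CPM in Sham vehicle. Every UNX/DOCA ITF2357 library was below every UNX/DOCA vehicle library, in a comparison where 9.31% of all genes had no overlap. Psmb10 had a log2 fold change of -0.76 ± 0.14 there (adjusted p = 0.0300). Without UNX/DOCA vehicle replicates 3 and 4 it was at -0.63 (adjusted p = 0.101), and the call also ended without UNX/DOCA ITF2357 replicate 1, 3 or 4, UNX/DOCA vehicle replicate 4, or Sham vehicle replicate 2 or 4. H2-K1, a class I heavy chain, had 52.9, 107.4, 63.2 and 57.3 CPM in UNX/DOCA ITF2357, 41.9, 43.2, 74.7 and 170.5 CPM in UNX/DOCA vehicle, and 40.5, 39.3, 33.98 and 32.7 CPM in Sham vehicle. Its highest libraries were UNX/DOCA vehicle replicate 4 and UNX/DOCA ITF2357 replicate 2, whereas class II was highest in UNX/DOCA vehicle replicate 3.

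Markers of the cells that could carry class II were set beside it. The 6 class II genes other than Ciita summed to 122.0 to 170.7 CPM in UNX/DOCA ITF2357, 120.7 to 421.1 CPM in UNX/DOCA vehicle and 106.4 to 195.5 CPM in Sham vehicle. UNX/DOCA vehicle replicates 3 and 4 were 3.26 and 2.22 times the median of the other 10 libraries. The corresponding factors were 2.26 and 1.68 for macrophage markers, 24.5 and 7.98 for neutrophil markers, and 1.94 and 1.29 for B cell markers. B cell markers summed to 11.9 and 7.88 CPM in these 2 libraries, inside the 4.56 to 13.7 CPM of the others. T cell markers summed to 7.85 and 8.199 CPM in these 2 libraries, against 5.24 to 10.4 CPM in the others. The median log2 fold change of the 6 neutrophil markers tested was -3.65 for UNX/DOCA ITF2357 against UNX/DOCA vehicle and 2.48 for UNX/DOCA vehicle against Sham vehicle, with 0 called and 6 and 1 at an unadjusted p under 0.05. The part of these cells in the class II values was not tested. Macrophage markers summed to 222.8 to 420.4 CPM in UNX/DOCA ITF2357, 254.1 to 649.3 CPM in UNX/DOCA vehicle and 255.5 to 289.2 CPM in Sham vehicle, with 0 of 14 called in any comparison and 2, 7 and 1 at an unadjusted p under 0.05. Their median log2 fold change was -0.43 for UNX/DOCA ITF2357 against UNX/DOCA vehicle and 0.66 for UNX/DOCA vehicle against Sham vehicle. Adgre1, which encodes F4/80, had 9.89, 9.696, 30.8 and 15.1 CPM in the UNX/DOCA vehicle libraries by replicate number. It had 8.32 to 14.2 CPM in UNX/DOCA ITF2357 and 8.11 to 15.8 CPM in Sham vehicle, whose replicate 2 lay above UNX/DOCA vehicle replicate 4. Cd163 and Mertk were highest elsewhere, at 57.3 CPM in UNX/DOCA ITF2357 replicate 4 and 15.35 CPM in Sham vehicle replicate 3. The class II sum divided by the macrophage sum was 0.386 to 0.548 in UNX/DOCA ITF2357, 0.453 to 0.649 in UNX/DOCA vehicle and 0.396 to 0.686 in Sham vehicle, so that its highest library was Sham vehicle replicate 2.

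Dendritic cell markers summed to 27.1 to 35.6 CPM in UNX/DOCA ITF2357, 26.6 to 32.5 CPM in UNX/DOCA vehicle and 25.6 to 32.6 CPM in Sham vehicle, and 0 of 7 tested passed in any comparison, with 3, 1 and 1 at an unadjusted p under 0.05. Zbtb46, which endothelial cells also express, had 13.7 to 24.5 CPM over the 12 libraries and so weighed most in that sum, at a log2 difference of 0.34 ± 0.15 for UNX/DOCA ITF2357 against UNX/DOCA vehicle (adjusted p = 0.246). Itgax, which encodes CD11c, had 0.111, 0.516, 0.361 and 0.456 CPM in UNX/DOCA ITF2357, 0.506, 0.388, 1.95 and 1.69 CPM in UNX/DOCA vehicle, and 0.456, 0.726, 0.317 and 0.561 CPM in Sham vehicle. Its highest libraries were UNX/DOCA vehicle replicates 3 and 4, as for class II, and its log2 difference for UNX/DOCA ITF2357 against UNX/DOCA vehicle was -1.61 ± 0.55 (adjusted p = 0.152). Clec10a, a lectin of dendritic cells and macrophages, had 5.40 and 3.88 CPM there, the latter close to 3.85 CPM in UNX/DOCA ITF2357 replicate 4. Xcr1 had 0.374 and 0.108 CPM there and was highest in Sham vehicle replicate 4 (0.561 CPM). Siglech had 0.831 and 0.755 CPM there and was highest in UNX/DOCA ITF2357 replicate 4 (1.37 CPM). Ccr7, the receptor that guides dendritic cells to lymph nodes, was highest in Sham vehicle replicate 4 (1.16 CPM). It was at -1.26 ± 0.50 for UNX/DOCA ITF2357 against UNX/DOCA vehicle (adjusted p = 0.206). Averaged per gene on the log2 scale, the dendritic list lay 0.65 and 0.17 above its mean over all libraries in UNX/DOCA vehicle replicates 3 and 4, which were the highest of the 12. Flt3, Cd209a and Batf3 had too few counts to be tested. B cell markers summed to 4.64 to 6.29 CPM in UNX/DOCA ITF2357, 4.56 to 12.6 CPM in UNX/DOCA vehicle and 5.97 to 13.7 CPM in Sham vehicle. Cd79b, part of the B cell receptor, had 0.222, 0.182, 0.197 and 0.331 CPM in UNX/DOCA ITF2357, 1.15, 0.517, 0.956 and 0.575 CPM in UNX/DOCA vehicle, and 0.912, 0.866, 0.712 and 1.44 CPM in Sham vehicle. It fell in UNX/DOCA ITF2357 against both, by 1.78 on the log2 scale against UNX/DOCA vehicle (SE 0.36, adjusted p = 0.0432) and by 2.08 against Sham vehicle (SE 0.36, adjusted p = 0.0215).

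Ms4a1, which encodes the B cell surface protein CD20, fell in UNX/DOCA ITF2357 against Sham vehicle (-2.74 ± 0.55, adjusted p = 0.0343). The 6 B cell markers tested had values below 0 in both comparisons, with medians of -1.96 and -2.15, while the class II medians were -0.73 and 0.13. Over all genes, 0.901% passed against UNX/DOCA vehicle and 1.75% against Sham vehicle. Against UNX/DOCA vehicle the call of Cd79b ended when any 1 library was left out other than UNX/DOCA vehicle replicate 2, and also with limma-voom (adjusted p = 0.0719) and with only the 2 groups (adjusted p = 0.132). With replicates 3 and 4 of UNX/DOCA vehicle both left out, Cd79b was at -1.84 (adjusted p = 0.156). Against Sham vehicle the call of Cd79b ended without UNX/DOCA ITF2357 replicate 3 or Sham vehicle replicate 1, 2 or 4, and that of Ms4a1 without any of these or without UNX/DOCA ITF2357 replicate 4 or UNX/DOCA vehicle replicate 4.

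**Figure D5:**
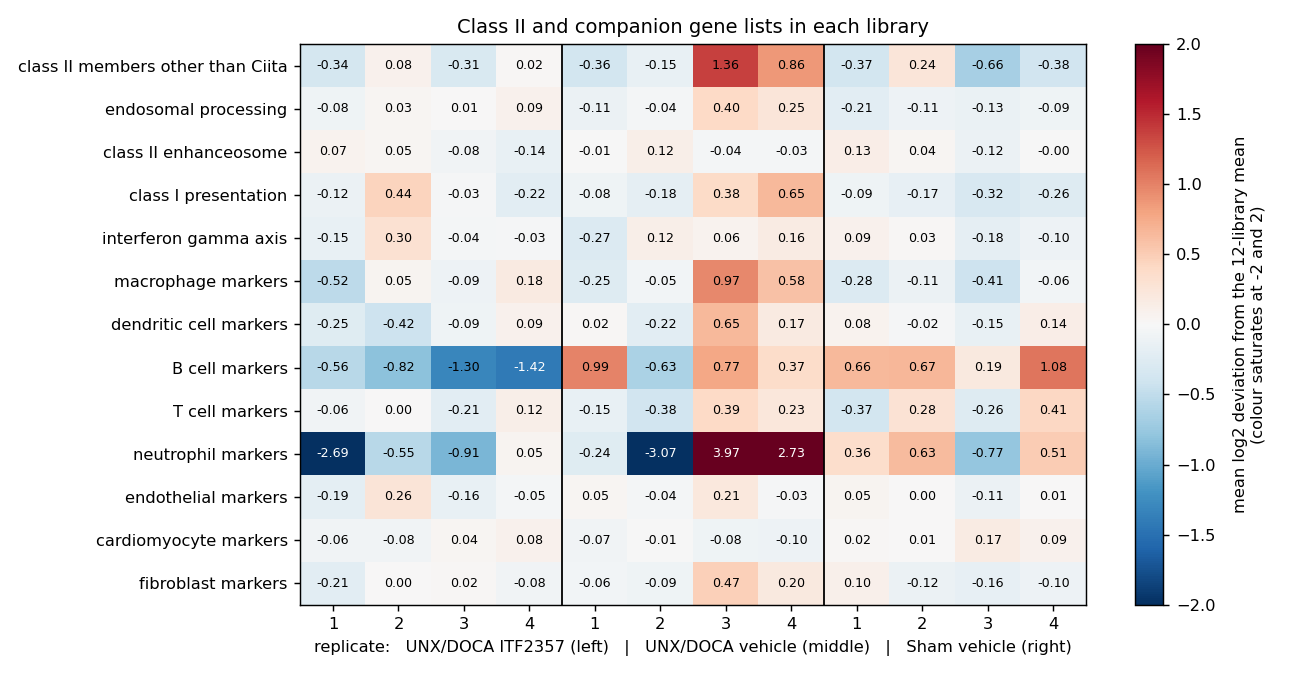
Each cell gives the mean log2 deviation of a gene list in 1 library from its mean over all 12 libraries, in columns by group and replicate. In UNX/DOCA vehicle replicates 3 and 4 the class II row is at 1.36 and 0.86, the macrophage row at 0.97 and 0.58 and the neutrophil row at 3.97 and 2.73, and in the B cell row all 4 UNX/DOCA ITF2357 libraries are below 0.

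The genes most like the class II genes were found by the Pearson r of log2 CPM with the mean of the 7, over 12 libraries and among 13195 genes with a symbol and a mean of at least 1 CPM. The 10 nearest were Tkt, Coro1a, Tnfrsf1b, Nckap1l, Cd55, Ptpn6, AB124611, Spns2, Arrb2 and Tnfrsf1a, with r from 0.95 down to 0.92. None of the 10 passed in any comparison (edgeR), at a lowest unadjusted p of 0.00288. Tnfrsf1a, a tumour necrosis factor receptor, was nearest to the threshold, at -0.60 ± 0.19 for UNX/DOCA ITF2357 against UNX/DOCA vehicle (adjusted p = 0.124). Without UNX/DOCA vehicle replicates 3 and 4, only Tkt of the 10 was still among the 10 nearest, with r = 0.88 over 10 libraries. With all 12 libraries, 3 of the 10 were among the 10 nearest by Spearman rho and 3 by Pearson r within groups, so the ranking changed with the measure as well as with the libraries.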

How the data were processed

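The authors deposited a table of raw read counts per Ensembl gene for 12 libraries, with no normalization. The submitters' processing notes list FastQC 0.11.9, STAR 2.7.10b and the build mm39. Per the labels, the library kit keeps strand. Sources used here do not give the counting tool, its strand setting or the annotation. Exons of Ciita share 329 bases with Dexi, and those of H2-DMa 360 with Brd2, both on the opposite strand, so such reads could have been assigned to either gene. H2-DMb1 and H2-DMb2 are near-identical and could share reads. Titles set the groups, since the treatment field numbers the 4 drug libraries differently. The labels call the replicates biological. The table has 0 columns of no sample.

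Symbols and exon lengths came from a GRCm38 annotation (GENCODE M21) by Ensembl identifier, and promoters from RefSeq (GRCm38.p6). Testing of counts used edgeR 4.0.16 (R 4.3.3) with filterByExpr (minimum count 10), TMM scaling and a robust quasi-likelihood fit of all 12 libraries with 9 residual degrees of freedom. Benjamini-Hochberg adjustment ran over 16981 genes per contrast, with a threshold of 0.05. SE is the absolute log2 fold change over the square root of F. Log2 CPM used a prior count of 2, and permutation p-values used 100000 draws. The fit was tested on simulated data. Alternatives were RLE and upper-quartile scaling, library totals, no filter, 1 CPM in 4 libraries, a replicate block, glmTreat at 1.2-fold, only the 2 groups compared, DESeq2 1.42.0, limma-voom (limma 3.58.1) with sample weights, and libraries left out singly or as UNX/DOCA vehicle replicates 3 and 4 together. The ranking of like genes without those 2 libraries was added after seeing the data. Up to 3 genes of each companion list were named by smallest p in a comparison, up to 4 defining genes of each cell type list, every other class II chain, and the 10 genes most like the members. Ifng, at 0, and the dendritic markers Xcr1 and Siglech were named outside that rule. The members and lists were chosen with earlier results of these data known. Some genes of these lists are not reported here.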

Additional observations from a re-analysis of the deposited data

Results flagged for a closer look

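In 2 of 21 gene and group combinations 1 library lay far from the other 3. In both it was Sham vehicle replicate 2. H2-Aa had 50.7 CPM there and 26.7 to 29.2 CPM in the other Sham vehicle libraries, and H2-Eb1 had 30.5 CPM there and 16.3 to 18.3 CPM in the others. About 1 in 20 such combinations would be picked out by chance. This library also had the largest total, 34.9 M counts. Its class II sum divided by its macrophage marker sum, 0.686, was the highest of 12, while its macrophage sum lay inside the range of the Sham vehicle group.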

How the results depend on the processing

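No class II gene passed the threshold in any comparison under any of the 23 alternatives, and 0 of the 7 were called with any 1 library left out. Of the fold changes of class II genes under alternatives, 456 kept their sign and 27 did not. Without UNX/DOCA vehicle replicates 3 and 4, UNX/DOCA ITF2357 against UNX/DOCA vehicle was at 0.15 for H2-Aa, 0.0703 for H2-Ab1, 0.12 for H2-Eb1, 0.22 for H2-DMa, 0.0838 for H2-DMb1, 0.0789 for Cd74 and 0.22 for Ciita. UNX/DOCA vehicle against Sham vehicle was then at -0.0369 for H2-Aa, -0.0612 for H2-DMa, -0.00992 for H2-DMb1 and -0.0767 for Cd74. With 1 library left out, Ciita ran from -0.288 to 0.0432 in the first comparison, turning without UNX/DOCA ITF2357 replicate 4 or UNX/DOCA vehicle replicate 4, and from -0.474 to 0.118 in the second, turning without Sham vehicle replicate 2. Against Sham vehicle, UNX/DOCA ITF2357 values near 0 ran with 1 library left out from -0.0381 to 0.394 for H2-DMa, from -0.0306 to 0.225 for H2-DMb1 and from -0.109 to 0.188 for Cd74. They also turned for H2-DMb1 with limma-voom (-0.0335) and for Cd74 with no filter (-0.0109) and limma-voom (-0.0761). The cause was not tested.

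Counts over all genes moved more. UNX/DOCA ITF2357 against UNX/DOCA vehicle gave 153 calls, but 352 with no filter, 12 without UNX/DOCA vehicle replicates 3 and 4, 10 with the 1.2-fold test, 5 with only the 2 groups, 926 with DESeq2, 239 with limma-voom and 14 to 243 with 1 library left out. UNX/DOCA vehicle against Sham vehicle gave 0, but 7 with upper-quartile scaling, 210 with no filter, 1 without replicates 3 and 4, 593 with DESeq2, 559 with limma-voom and 0 to 380 with 1 library left out. UNX/DOCA ITF2357 against Sham vehicle gave 298, but 481 without those replicates, 18 with the 1.2-fold test, 475 with only the 2 groups, 1168 with DESeq2, 1528 with limma-voom and 17 to 616 with 1 library left out. Companion list calls in the first comparison, 1 in the fit of all libraries, were 0 without replicates 3 and 4, with the 1.2-fold test and with only the 2 groups, 2 with DESeq2 and 0 to 1 with 1 library left out. In the second, 0, they were 1 with no filter, 3 with DESeq2, 2 with limma-voom and 0 to 2 with 1 library left out. In the third, 2, they were 1 with library totals or no filter, 4 without replicates 3 and 4, 0 with the 1.2-fold test and 0 to 2 with 1 library left out.

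Libraries with the same replicate number did not deviate together: over 12 pairs, r ran from -0.19 to 0.25 with a median of 0.00, and 3 pairs were over 0.1. A fit with the replicate number as a block gave 68, 31 and 192 calls over all genes in the 3 comparisons, 0 of the 7 class II genes, 0, 0 and 1 companion list genes, and turned Cd74 to -0.0107 in UNX/DOCA ITF2357 against Sham vehicle. Under the block the call of Psmb10 ended (adjusted p = 0.0587), as did those of Cd79b against UNX/DOCA vehicle (0.0666) and of Ctsz (0.0504) and Ms4a1 (0.0554) against Sham vehicle, while Asah1 and Cd79b against Sham vehicle were called (adjusted p = 0.0376 each). The 1.2-fold test called none of these 5 genes, and with only the 2 groups Psmb10 was not called (adjusted p = 0.132). Ctsz was not called with library totals (adjusted p = 0.0508), nor Asah1 with no filter (adjusted p = 0.0677). RLE, upper-quartile and library-total scaling moved the median of all genes by less than 0.1. Low counts limit Ciita, H2-DMa and H2-DMb1 most.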
